A study of Mus musculus with 4 samples.

Results

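Carboxylesterases are serine hydrolases that split ester, amide and thioester bonds in drugs, pesticides and lipids, and most of them are held in the lumen of the endoplasmic reticulum. In mice the family has expanded into clusters of neighbouring gene copies, of which the Ces2 genes are the class best known from small intestinal epithelium, where they cut ester prodrugs and some of them also act on acylglycerols. Several carboxylesterase genes of the liver are known to respond to pregnane X receptor (PXR), a nuclear receptor that senses drugs, steroids and bile acids.

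The carboxylesterases of the ileum were taken as every gene of the deposited table whose symbol is Ces1 or Ces2 plus a letter, or Ces3a or Ces3b. This gave 9 of 11489 genes, Ces1c, Ces1d, Ces1e and Ces1f from 1 cluster and Ces2a, Ces2b, Ces2c, Ces2e and Ces2g from the other. The mouse annotation holds 17 protein-coding genes of this name form, and the other 8 (Ces1a, Ces1b, Ces1g, Ces1h, Ces2f, Ces2h, Ces3a and Ces3b) were not analysed here. The pseudogene Ces2d-ps lies outside the rule and is described apart.

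RNA was sequenced from the ileum of wild-type C57BL/6J mice aged 8 weeks. The PCN group received 40 mg/kg of the mouse PXR agonist PCN, a carbonitrile of pregnenolone, in DMSO and corn oil, as 3 intraperitoneal injections at intervals of 8 h, and the ileum was taken 8 h after the last. The vehicle group is labelled as vehicle and as DMSO, is of the same genotype and age, and no receptor knockout is among the samples. Each group has 2 libraries, the labels do not tie a library to an animal of its own, and p-values therefore cover only how far these samples differ, and that spread can be technical.

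Values are FPKM, fragments scaled to the length of the transcript and to the mapped fragments of the library, summed over the transcripts of a gene, so levels can be compared between genes. The PCN libraries summed to 510900 and 481925 FPKM and the vehicle libraries to 482986 and 550832 FPKM, and their read numbers are unknown. The second vehicle library stood apart in its α-defensin genes, which summed to 73428 FPKM there against 27716 to 32171 FPKM in the other 3 libraries. It also stood apart over all genes that averaged 1 FPKM or more, in log2(FPKM + 1). Its Pearson correlation was 0.948 with each PCN library and 0.955 with the first vehicle library. The first vehicle library correlated more closely with the PCN libraries, at 0.977 and 0.976, than with the second vehicle library. Epithelial markers (8 genes, among them Krt8 and Epcam) summed to 6164 and 5632 FPKM in PCN libraries, against 6493 and 6171 FPKM in vehicle libraries, with 0 calls in the limma fit. Of the 8, 1 had an unadjusted p under 0.05 and a lower level with PCN, as had 4.11% of all genes tested. The log2 difference was negative in 6 of them and in 49.4% of all genes tested. In 4 of them both PCN libraries were lower than both vehicle libraries, as in 19.1% of all genes tested. The ileal bile acid-binding protein Fabp6 had 4228 and 3652 FPKM in PCN libraries, against 8059 and 6757 FPKM in vehicle libraries. Smooth muscle markers summed to 183 and 227 FPKM in PCN libraries and to 329 and 661 FPKM in vehicle libraries. In these bulk samples, fewer cells of a type and less RNA per cell cannot be told apart.

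All 9 genes lie on chromosome 8 of the mm10 build. The Ces1 genes run on the minus strand, Ces1c at chr8:93099015-93131283, Ces1d at chr8:93166068-93197838, Ces1e at chr8:93201218-93229619 and Ces1f at chr8:93256236-93279747. The Ces2 genes run on the plus strand, Ces2a at chr8:104734003-104741634, Ces2b at chr8:104831572-104840093, Ces2c at chr8:104847068-104854483, Ces2e at chr8:104926260-104934672 and Ces2g at chr8:104961718-104969537. Within Ces2 the coding sequences of pairs of genes were 81.7% to 91.6% identical, within Ces1 73.8% to 80.4%, and between the clusters 58.8% to 61.5%.

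The 250 bases before the start of Ces2a, Ces2e and Ces2c are shown because Ces2a and Ces2e hold nearly all of the family's RNA and differ in how far their groups lie apart, while Ces2c is a low-level neighbour of the same cluster. They are RefSeq sequences of build GRCm38.p6, plus strand, 5′ to 3′, and 6 of the 9 genes had such an entry. Capitals mark AGGTCA, a half-site letter pattern of nuclear receptors, the run shared by Ces2a and Ces2e, and the longest run that Ces2a, Ces2e and Ces2g have in common.
Ces2a chr8:104733753-104734002: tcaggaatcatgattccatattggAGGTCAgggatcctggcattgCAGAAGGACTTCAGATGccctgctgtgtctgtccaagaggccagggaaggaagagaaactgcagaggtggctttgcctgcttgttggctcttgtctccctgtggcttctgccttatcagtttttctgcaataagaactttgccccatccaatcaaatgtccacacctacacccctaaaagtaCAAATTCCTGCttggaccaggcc
Ces2e chr8:104926010-104926259: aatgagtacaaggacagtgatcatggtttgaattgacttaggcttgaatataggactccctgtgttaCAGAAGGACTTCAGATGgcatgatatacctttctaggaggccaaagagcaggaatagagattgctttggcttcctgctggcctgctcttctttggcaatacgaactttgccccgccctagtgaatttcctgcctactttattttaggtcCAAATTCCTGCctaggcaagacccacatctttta
Ces2c chr8:104846818-104847067: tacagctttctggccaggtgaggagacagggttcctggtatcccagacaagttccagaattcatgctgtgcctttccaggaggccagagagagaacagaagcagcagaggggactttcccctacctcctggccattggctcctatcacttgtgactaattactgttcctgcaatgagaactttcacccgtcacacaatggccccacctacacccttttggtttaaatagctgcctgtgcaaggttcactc
Ces2a and Ces2e share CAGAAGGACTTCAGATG, a run of 17 bases that was found in 2 of 27025 genes with a RefSeq promoter, which are Ces2a and Ces2e. It was picked as the longest run that both windows share. It starts 205 bases before the start of Ces2a and 183 bases before that of Ces2e. Over the whole length, the window of Ces2a was 67.0% identical to that of Ces2c and 57.3% to that of Ces2e. CAAATTCCTGC, picked because Ces2a, Ces2e and Ces2g share it, was found in 3 of the 6 member promoters and in 0.0244% of 32851 RefSeq promoters of that length searched on both strands. AGGTCA was found in 1 of the 6, that of Ces2a, and in 14.02% of all promoters. The related half-site AGTTCA was found in 0 of the 6 and in 11.8% of all promoters. None of the 6 windows held a pair of half-sites of the form AGNTCA spaced by 3 bases (AGNTCANNNAGNTCA), 4 bases (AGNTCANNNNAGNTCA) or 1 base (AGNTCANAGNTCA), or the everted form TGANCTNNNNNNAGNTCA, which 0.0517%, 0.103%, 0.183% and 0.0304% of all promoters held. A letter match in these windows is a description and not a binding site. Sequence farther than 250 bases before the start was not searched, so the absence of a pair covers these windows only.

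Ces2a, whose product is known as an acylglycerol lipase, was the member that differed most between the groups. It had 783 and 636 FPKM in PCN libraries, against 180 and 108 FPKM in vehicle libraries. Both PCN libraries lay well above both vehicle libraries, and the groups did not overlap. The means were 709 ± 104 FPKM with PCN and 144 ± 50.9 FPKM with vehicle (SD, n = 2 each), a ratio of means of 4.92. On the log2 scale of FPKM + 1 the difference was 2.33 ± 0.26 (SE), with a 95% interval of 1.67 to 2.99.

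In the fit over the 11103 genes that averaged 1 FPKM or more, the difference in Ces2a had an adjusted p of 0.0702 (limma, Benjamini-Hochberg), which missed the threshold of 0.05. Ces2a had the tenth largest log2 fold change and rank 43 by p among those genes, and 0.135% of all genes tested passed the threshold. Over 16 alternative settings the adjusted p ranged between 0.00643 and 0.518, and it was past the threshold in 4 of them, so the call depends on the processing while the direction was positive in each. With the smooth muscle score taken into the model the log2 difference was 1.56 (adjusted p = 0.208), and leaving out any 1 library gave between 1.96 and 2.69.

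**Figure D1:**
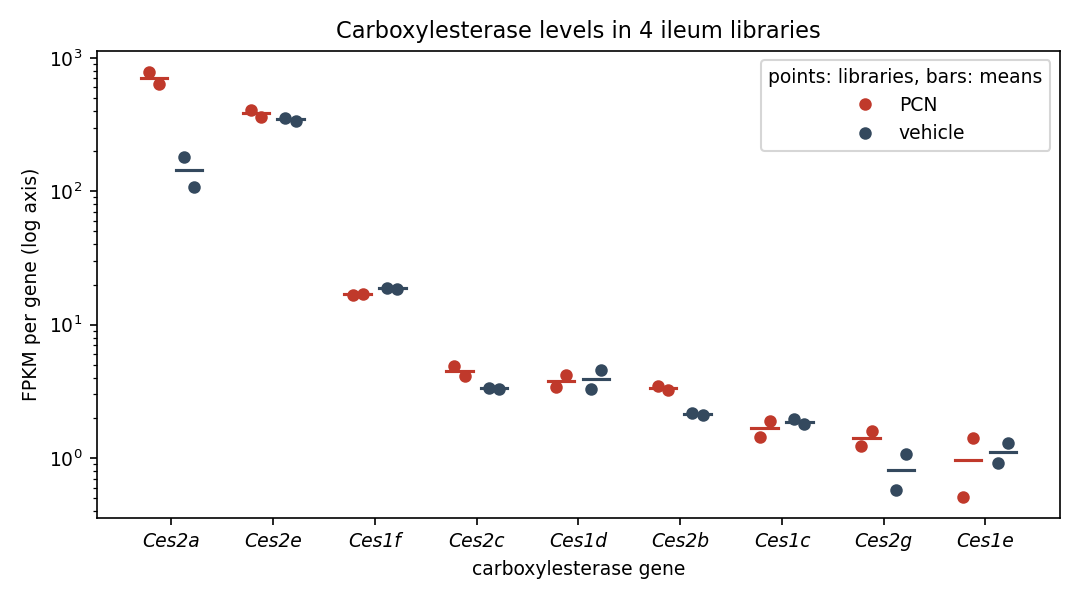
FPKM of each carboxylesterase gene in the 4 ileum libraries on a log axis, with PCN in red to the left of vehicle in dark blue for each gene. Points are libraries and horizontal bars are the means of 2 libraries, and Ces2a shows 636 to 783 FPKM with PCN against 108 to 180 FPKM with vehicle.

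Ces2e was the most abundant carboxylesterase in vehicle libraries. It had 405 and 361 FPKM in PCN libraries, against 355 and 337 FPKM in vehicle libraries, and the groups did not overlap. The means were 383 ± 31.1 FPKM with PCN and 346 ± 12.8 FPKM with vehicle (SD, n = 2 each). The log2 difference was 0.14 ± 0.08 (SE), with a 95% interval of -0.07 to 0.36 and an adjusted p of 0.671 (limma), so a difference of more than 0.36 lay outside the interval.

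The order of Ces2a and Ces2e was the opposite in the groups. The ratio of Ces2a to Ces2e was 1.93 and 1.76 in PCN libraries, against 0.507 and 0.321 in vehicle libraries. The log2 ratio differed by 2.19 between the groups, with an exact two-sided permutation p of 0.333, which is the smallest that 2 against 2 libraries allow. Among all 11489 genes Ces2a ranked 74 and 88 by level in PCN libraries, against 359 and 603 in vehicle libraries, while Ces2e ranked 157 and 170 in PCN libraries, against 178 and 188 in vehicle libraries.

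The other Ces2 genes were expressed at far lower levels, under 5 FPKM in every library. Ces2c, which is known as a lipid hydrolase of mouse liver and intestine, had 4.90 and 4.11 FPKM in PCN libraries, against 3.37 and 3.32 FPKM in vehicle libraries. Its log2 difference was 0.34 (95% interval -0.09 to 0.77, adjusted p = 0.610, limma), and a part of this level comes from a transcript that may lie on the opposite strand, as described with the transcripts. Ces2b had 3.47 and 3.22 FPKM in PCN libraries, against 2.18 and 2.10 FPKM in vehicle libraries. Its unadjusted p was 0.0408 and its adjusted p 0.502 for a log2 difference of 0.47 (limma, 95% interval 0.03 to 0.91). Ces2g, the lowest of the 5 in both groups, had 1.24 and 1.60 FPKM in PCN libraries, against 0.575 and 1.07 FPKM in vehicle libraries, with a log2 difference of 0.42 and an adjusted p of 0.683 (limma). The table holds only transcripts with a mean above 1 FPKM in at least 1 group, and Ces2g passed that limit through its PCN mean alone, as Ces1e did through its vehicle mean. Since 1 FPKM was added before the logarithm, the log2 values understate the change of genes this low.

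Both PCN libraries were higher than both vehicle libraries in Ces2a, Ces2b, Ces2c and Ces2e, the 4 Ces2 genes that averaged 1 FPKM or more in each group, a pattern that 21.1% of the genes tested had. Ces2g had it too, but the limit on low values favoured that direction for it. It is left out of the counts of ranges and signs that follow, while the counts by p cover all 9 members. Ranges stood apart in either direction in 5 of the 7 members with both means at that level, these 4 and Ces1f, and in 40.2% of the genes tested. The 4 Ces2 genes had positive values with a median log2 difference of 0.40, against 0.0045 for the 10710 genes with both means at that level, and 50.6% of all genes tested had a positive value. No member passed the threshold in either direction, and 0.0811% of all genes tested did so as higher and 0.054% as lower with PCN. Ces2a and Ces2b were the 2 of 9 members with an unadjusted p under 0.05 and a higher level with PCN, which 5.25% of all genes tested had, and 0 members had one with a lower level, against 4.11% of all genes tested. The Ces2 copies share sequence and chromosome region and are not independent of each other.

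The Ces1 genes had log2 differences near or below 0, and none passed the threshold. Ces1f, the most abundant of them and known in mouse liver as a lipase of stored lipid, had 16.8 and 16.9 FPKM in PCN libraries, against 18.8 and 18.6 FPKM in vehicle libraries. Its groups did not overlap, in the lower direction with PCN, which 19.1% of the genes tested had, and its log2 difference was -0.14 (95% interval -0.38 to 0.10, adjusted p = 0.702, limma). Ces1d, the triglyceride hydrolase of liver and fat, had 3.39 and 4.22 FPKM in PCN libraries, against 3.27 and 4.54 FPKM in vehicle libraries, and its groups overlapped. Adipocyte markers summed to 37.5 and 55.0 FPKM in PCN libraries and to 47.9 and 136 FPKM in vehicle libraries, with 6 of 8 listed genes in the table, and Plin1 and Lep not among those 6. The second library of each group was the higher one for Ces1d and for these markers, and their part in the Ces1d level was not tested.

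Ces1c, which encodes a carboxylesterase secreted into mouse plasma, had 1.45 and 1.89 FPKM in PCN libraries, against 1.96 and 1.80 FPKM in vehicle libraries. Ces1e, known for anchoring β-glucuronidase in the endoplasmic reticulum, had 0.515 and 1.41 FPKM in PCN libraries, against 0.918 and 1.29 FPKM in vehicle libraries. Their ranges overlapped between the groups, and the first PCN library was the lowest for both. Ces1e is left out of the count, since its higher vehicle mean brought it into the table. Ces1c, Ces1d and Ces1f had a median log2 difference of -0.11, all 3 were negative, as were 49.4% of the genes tested, and 1 of the 3 did not overlap. For Ces1c, Ces1d and Ces1e the sign turned under at least 1 alternative setting.

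**Figure D2:**
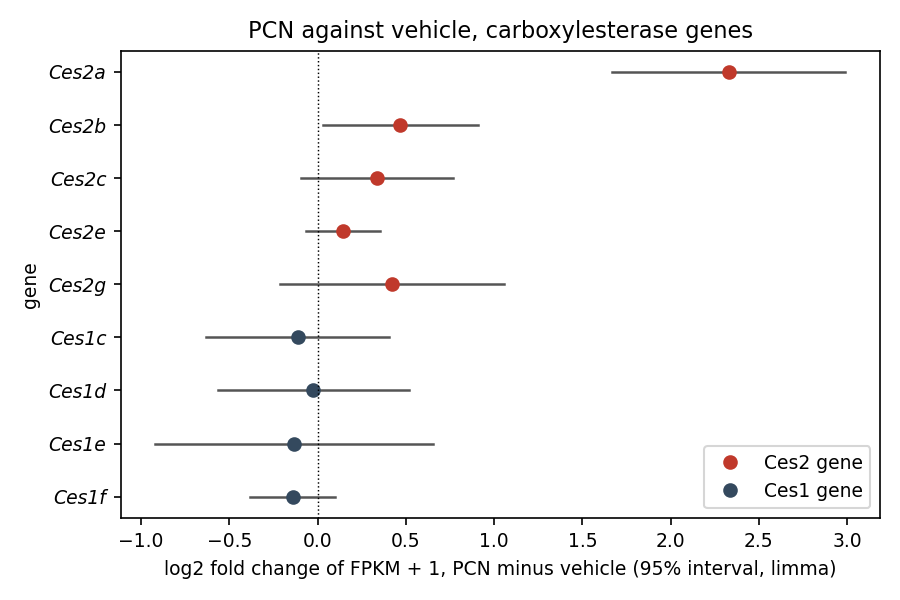
Log2 fold change of FPKM + 1, PCN minus vehicle, for the 9 carboxylesterase genes, with the 95% interval of the limma fit as horizontal lines, Ces2 genes in red and Ces1 genes in dark blue. Ces2a lies at 2.33 with an interval of 1.67 to 2.99, and among the other 8 genes the interval of Ces2b alone leaves out 0.

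By level, the order in PCN libraries was Ces2a, Ces2e and Ces1f, each separated from the next, then Ces2c, Ces1d and Ces2b, then Ces1c, Ces2g and Ces1e. The ranges of neighbours overlapped within the last 2 of these sets of genes. In vehicle libraries it was Ces2e, Ces2a and Ces1f, then Ces1d and Ces2c, whose ranges overlapped, then Ces2b and Ces1c, each separated from the next, and last Ces1e and Ces2g, whose ranges overlapped.

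Added together, the 9 genes made up 0.239% and 0.214% of the library FPKM with PCN, against 0.117% and 0.0868% with vehicle. The means were 0.226% ± 0.0177 with PCN and 0.102% ± 0.0216 with vehicle (SD, n = 2 each), a ratio of 2.22. Without Ces2a the family summed to 437 and 395 FPKM in PCN libraries and to 386 and 370 FPKM in vehicle libraries, a ratio of means of 1.10. The 7 genes other than Ces2a and Ces2e summed to 31.7 and 33.4 FPKM in PCN libraries, against 31.1 and 32.7 FPKM in vehicle libraries, so the sum of these low members overlapped between the groups.

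The makeup of the family differed as well. Ces2a held 64.2% and 61.7% of the family FPKM in PCN libraries, against 31.8% and 22.6% in vehicle libraries. Ces2e held 33.2% and 35.1% in PCN libraries, against 62.7% and 70.5% in vehicle libraries, while its own level differed little. Together Ces2a and Ces2e made up 97.4% and 96.8% of the family with PCN, against 94.5% and 93.2% with vehicle. Shares within a sum are bound to each other, and the lower share of Ces2e stands beside a higher total.

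**Figure D3:**
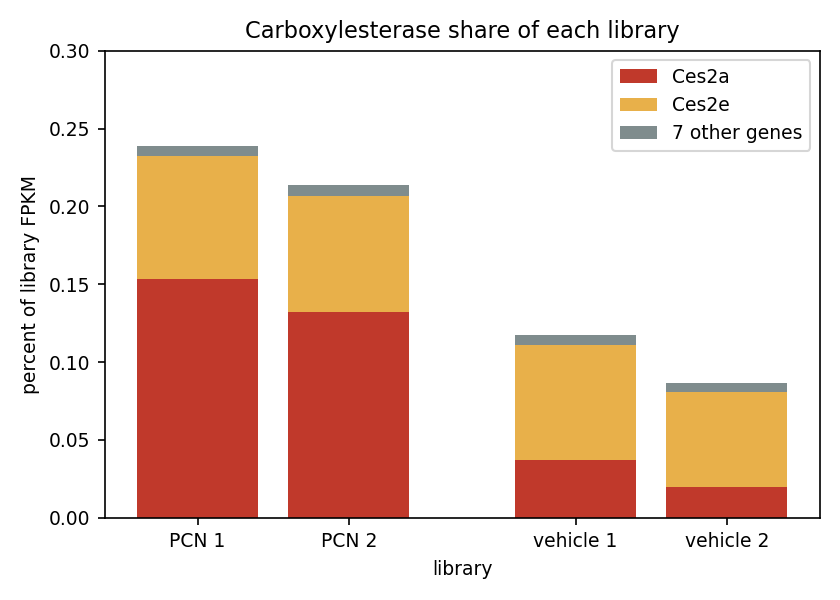
Percent of each library's summed FPKM that came from Ces2a (red), Ces2e (yellow) and the 7 other carboxylesterase genes (grey), stacked from 0, for the 2 PCN libraries at left and the 2 vehicle libraries at right. The stacks reach 0.239% and 0.214% with PCN, against 0.117% and 0.0868% with vehicle, and the Ces2a part is the one that differs most in height. The parts other than Ces2a add up to 0.0856% and 0.0819% with PCN, against 0.0800% and 0.0672% with vehicle.

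The 2 vehicle libraries themselves differed in Ces2a. The second, with 108 FPKM of Ces2a, was the library with the highest smooth muscle sum, 661 FPKM, and the highest α-defensin sum. Without that library the log2 difference of Ces2a was 1.96, those of the other Ces2 genes lay between 0.11 and 0.62, and the family share was 0.109 percentage points higher with PCN than with vehicle. Set against the summed FPKM of the 8 epithelial markers, Ces2a came to 0.127 and 0.113 in PCN libraries, against 0.0277 and 0.0175 in vehicle libraries, a ratio of means of 5.30. Ces2e came to 0.0658 and 0.0642 in PCN libraries, against 0.0547 and 0.0546 in vehicle libraries, a ratio of 1.19. On this scale the difference in Ces2a was as large as on the library scale. The marker sum itself had a ratio of means of 0.931, PCN over vehicle, which raises both ratios. With α-defensin genes left out of the library sum, the family share was 0.255% and 0.227% with PCN, against 0.125% and 0.1001% with vehicle.

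**Figure D4:**
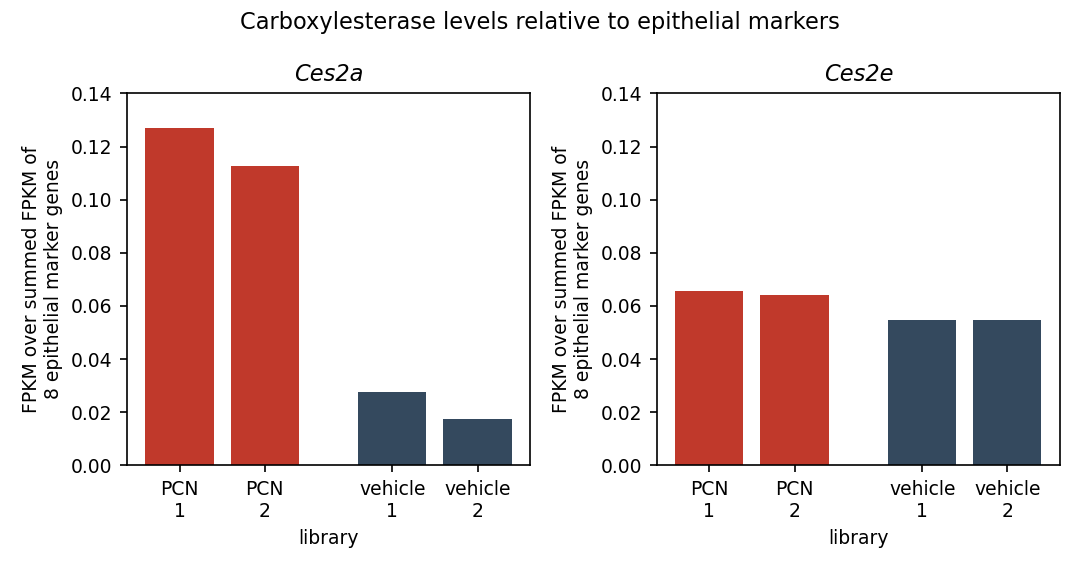
FPKM of Ces2a (left panel) and Ces2e (right panel) divided by the summed FPKM of 8 epithelial marker genes, in the PCN libraries (red) and the vehicle libraries (dark blue), with both axes starting at 0. Ces2a lies at 0.127 and 0.113 with PCN, against 0.0277 and 0.0175 with vehicle, and Ces2e lies between 0.0546 and 0.0658 in all 4 libraries.

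Lists of genes that mark position along the gut differed in their sums, which 1 or 2 genes carried in each. A list of 5 ileum genes summed to 5068 and 4395 FPKM in PCN libraries, against 9121 and 7620 FPKM in vehicle libraries. Fabp6 made up most of that sum, with a log2 difference of -0.91. Fgf15 and Slc51a of the same list were also lower with PCN, at -1.78 and -0.53, while Slc10a2 and Slc51b had log2 differences of 0.08 and -0.01. Proximal small intestine genes (4 of 6 in the table, among them Slc40a1 and Fabp1) summed to 90.4 and 77.6 FPKM in PCN libraries, against 55.6 and 56.1 FPKM in vehicle libraries. Colon genes (2 of 4, Car1 and Slc26a3) summed to 135 and 83.5 FPKM in PCN libraries, against 53.5 and 44.7 FPKM in vehicle libraries. Lct of the proximal list and Slc26a3 of the colon list had log2 differences of -0.65 and -0.19, opposite to the sums. None of these genes passed the threshold in the limma fit. At an unadjusted p under 0.05, 3 ileum genes were lower with PCN, and 2 proximal genes and 1 colon gene were higher. Such a p was found with a lower level in 4.11% and with a higher level in 5.25% of all genes tested. The part of these position genes in the carboxylesterase values was not tested. Of 6 hepatocyte markers only Ttr was in the table, at 1.99 and 2.82 FPKM in PCN libraries against 3.11 and 3.43 FPKM in vehicle libraries, and 0 of 5 acinar pancreas markers were.

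Of the remaining cell type lists, the 8 enterocyte genes summed to 3389 and 2891 FPKM in PCN libraries, against 3379 and 3285 FPKM in vehicle libraries, and the peptidase Anpep made up most of that sum. Their median log2 difference was -0.51, and 6 of the 8 were lower in both PCN libraries than in both vehicle libraries, as were 19.1% of all genes tested. An unadjusted p under 0.05 and a lower level with PCN were found in 5 of them and in 4.11% of all genes tested. The part of these genes in the carboxylesterase values was not tested. Of the 8 enterocyte genes 1 was called, the peptidase Mme, which fell to 7.38 and 7.26 FPKM with PCN, against 20.9 and 20.8 FPKM with vehicle (log2 difference -1.39, limma adjusted p = 0.0481). Over all genes tested, 0.054% were called lower with PCN. The 5 goblet, 3 Paneth and 3 immune genes tested held 0 calls, with median log2 differences of 0.05, 0.05 and 0.42. In these lists 2, 1 and 1 genes had an unadjusted p under 0.05 and a higher level with PCN, as had 5.25% of all genes tested. The 9 smooth muscle genes had a median of -0.83 and the 6 adipocyte genes one of -0.85, with 0 limma calls. All were negative, as were 49.4% of all genes tested. An unadjusted p under 0.05 and a lower level with PCN were found in 6 and 1 of them, against 4.11% of all genes tested. Adipoq and Retn averaged under 1 FPKM with PCN and passed the limit on low values through their vehicle means alone. The 4 adipocyte genes that averaged 1 FPKM or more in each group had a median of -0.70.

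Ces2a was counted in 4 deposited transcripts. The main one, matched to ENSMUST00000034346.14 with 12 exons and 1674 coding bases, had 751 and 616 FPKM in PCN libraries, against 174 and 106 FPKM in vehicle libraries, and held 95.9% to 97.7% of the gene. Fitted alone among 18397 transcripts, its log2 difference was 2.32 ± 0.26 (SE) with an adjusted p of 0.162 (limma), and over all those transcripts 1 was called higher and 0 lower. A shorter form matched to ENSMUST00000164182.2, which has 11 exons and lacks 99 coding bases of the main form, had 17.4 and 8.14 FPKM in PCN libraries, against 2.04 and 6.6e-05 FPKM in vehicle libraries. The second vehicle value is an estimate near 0, and no fold is given for it. The deposited locus of Ces2a ran 6251 bases past the annotated end of the gene.

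Ces2e was counted in 3 transcripts. The main one, matched to ENSMUST00000109410 with 13 exons and 1999 bases, held 93.0% to 93.8% of the gene in every library. The other reference transcript, ENSMUST00000034355.10, encodes the same protein-coding sequence and is longer by 700 exonic bases, 696 of them after the end of the coding sequence. It had 25.8 and 23.8 FPKM in PCN libraries, against 19.98 and 19.6 FPKM in vehicle libraries, with a log2 difference of 0.31, an unadjusted p of 0.0215 and an adjusted p of 0.448 (limma). The balance of the transcripts of Ces2e thus differed by under 1 percentage point between any 2 libraries.

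Transcript identifiers in the table run by strand, and 1 transcript each of Ces2a, Ces2e and Ces2c carried an identifier from the run of the opposite strand. For Ces2a and Ces2e these held under 1% of the gene. For Ces2c the opposite-run transcript held 27.2% and 31.6% of the gene in PCN libraries, against 32.6% and 53.3% in vehicle libraries. The transcript of Ces2c in its own run had 3.57 and 2.81 FPKM in PCN libraries, against 2.27 and 1.55 FPKM in vehicle libraries. The opposite-run transcript had 1.33 and 1.30 FPKM in PCN libraries, against 1.10 and 1.77 FPKM in vehicle libraries. Own-run and opposite-run transcripts had log2 differences of 0.53 and -0.06. Whether the opposite-run transcripts are antisense RNA named after the gene was not tested. By its own-run transcript alone, Ces2c averaged 3.19 FPKM with PCN and 1.91 FPKM with vehicle, below the means of Ces1d and Ces2b in both groups. With own-run transcripts only, the adjusted p of Ces2a was 0.0391 (limma), a setting chosen after the data were seen.

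**Figure D5:**
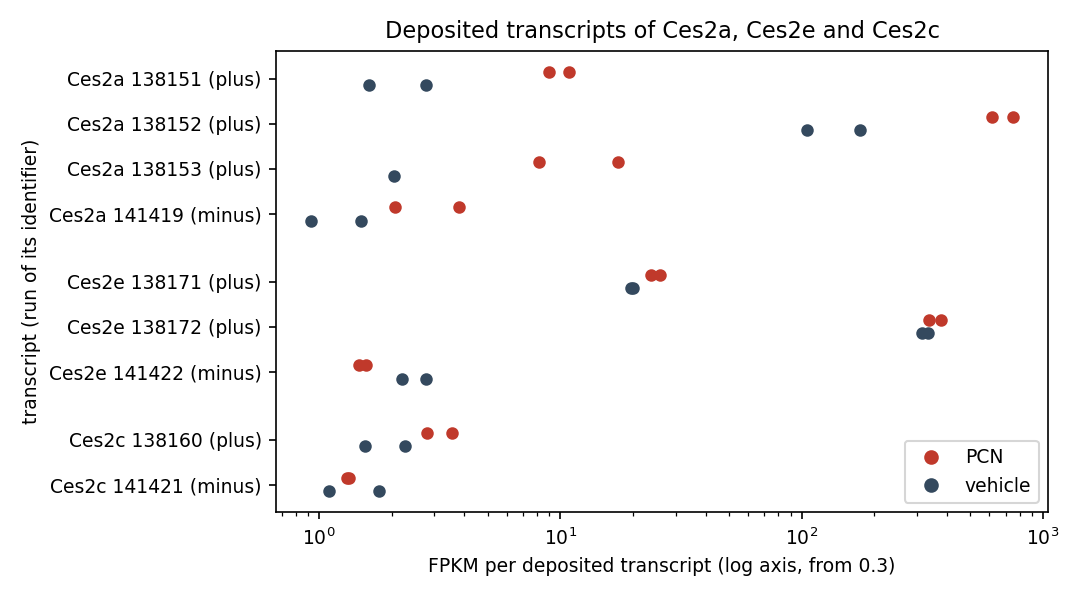
FPKM of the deposited transcripts of Ces2a, Ces2e and Ces2c on a log axis, each named by the last digits of its identifier with the strand run of that identifier in brackets, PCN libraries in red above vehicle libraries in dark blue. The main transcript of Ces2a lies at 751 and 616 FPKM with PCN against 174 and 106 FPKM with vehicle, and 1 vehicle value of its shorter form, 6.6e-05 FPKM, is below the axis and not drawn.

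Sequence shared between copies bears most on Ces2c and Ces2a. Of the windows of 50 bases in the main annotated transcript of a gene, 42.2% of those of Ces2c also occurred in another gene, mostly in Ces2d-ps. The shares were 22.2% for Ces2a, mostly with the pseudogene Gm7208, 16.98% for Ces1c, mostly with Ces1b, 9.56% for Ces2b and 4.56% for Ces2e. Gm7208 and Ces1b were not analysed here, and how the counting divided reads among copies is not given in the sources used here. Ces2c values are therefore uncertain, and a part of the reads counted for Ces2a could come from such a copy. The pseudogene Ces2d-ps, which shares 76.9% of its windows with other genes, had 2.43 and 1.64 FPKM in PCN libraries, against 1.36 and 1.09 FPKM in vehicle libraries (log2 difference 0.44, adjusted p = 0.639, limma).

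The nearest tested genes on either side of each cluster gave a local comparison. Before the Ces2 cluster, Fam96b had 38.7 and 34.2 FPKM in PCN libraries, against 26.6 and 27.5 FPKM in vehicle libraries, with a log2 difference of 0.41 and an adjusted p of 0.286 (limma). This is within the range of the low Ces2 genes. After the cluster, Cbfb had 19.2 and 21.002 FPKM in PCN libraries, against 20.998 and 19.5 FPKM in vehicle libraries. Before the Ces1 cluster, Lpcat2 had 2.85 and 2.40 FPKM in PCN libraries, against 3.14 and 3.38 FPKM in vehicle libraries. After it, Gnao1 had 4.11 FPKM in 1 PCN library and was listed at 0 in the other 3 libraries.

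Gsta1, Cyp3a25 and S100g were the genes whose pattern over the 4 libraries was most like that of Ces2a, by the Euclidean distance of centred log2 values among 11094 genes. Gsta1, a glutathione transferase, had 185 and 139 FPKM in PCN libraries, against 36.6 and 28.9 FPKM in vehicle libraries, at a distance of 0.2996. Cyp3a25, a drug-metabolising cytochrome P450, had 184 and 182 FPKM in PCN libraries, against 53.1 and 33.1 FPKM in vehicle libraries, at a distance of 0.307. S100g, the intestinal calcium-binding protein calbindin, had 348 and 245 FPKM in PCN libraries, against 60.4 and 36.8 FPKM in vehicle libraries, at a distance of 0.311. Gsta1 passed the threshold (adjusted p = 0.0481, limma), while Cyp3a25 and S100g had adjusted p-values of 0.0650 and 0.0689.

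Other hydrolases of esters, amides and epoxides gave values in both directions. Of 31 such genes 26 were tested, 12 had a positive and 14 a negative log2 difference, and 0 passed the threshold in the limma fit, while 3 had an unadjusted p under 0.05 with a higher and 3 with a lower level with PCN. Over all genes tested, 5.25% had such a p with a higher and 4.11% with a lower level. In 7 of the 26 both PCN libraries were higher than both vehicle libraries, and in 8 both were lower. These patterns were found in 21.1% and 19.1% of all genes tested. The median log2 difference of the 26 hydrolases was -0.0043. The acyl-CoA thioesterase Acot1, chosen after its values were seen, had 4.48 and 4.25 FPKM in PCN libraries, against 1.36 and 2.41 FPKM in vehicle libraries (log2 difference 0.92, adjusted p = 0.320, limma). The most abundant, Esd, which hydrolyses S-formylglutathione, had 206 and 198 FPKM in PCN libraries, against 197 and 192 FPKM in vehicle libraries. Lypla1, a thioesterase that removes palmitate from proteins, had 130 and 121 FPKM in PCN libraries, against 133 and 117 FPKM in vehicle libraries.

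PXR and its textbook targets outside the carboxylesterases gave 19 tested genes of 23 listed, with a positive log2 difference in each, a median of 1.16 and 2 genes past the threshold. Over all genes tested, 50.6% had a positive value and 0.0811% passed the threshold as higher. A further listed gene, Ugt1a6a, averaged under 1 FPKM and was not tested, with values near 0 in PCN libraries, against 0.777 and 1.58 FPKM in vehicle libraries. Cyp2c66 and Cyp2b10 passed the limit through their PCN means alone. The 17 genes that averaged 1 FPKM or more in each group had a median of 0.97, with 1 of them, Gsta1, past the threshold. The genes past the threshold were Gsta1 and the cytochrome P450 gene Cyp2c66, which rose to 19.9 and 11.9 FPKM with PCN, against 0.384 and 1.5e-06 FPKM with vehicle (adjusted p = 0.0484, limma). Ces2a, at 2.33, lay above both medians of that list, and the other 8 carboxylesterases, at -0.14 to 0.47, lay below them. Of 18 genes of triglyceride synthesis, storage and export, 4 had a positive and 14 a negative log2 difference, with a median of -0.11. Over all genes tested, 49.4% had a negative value. In 3 of the 18 both PCN libraries were higher than both vehicle libraries, and in 8 both were lower. These patterns were found in 21.1% and 19.1% of all genes tested. An unadjusted p under 0.05 (limma) was found in 2 with a higher and in 4 with a lower level, against 5.25% and 4.11% of all genes tested. The gene of this list past the threshold was Fabp2, the intestinal fatty acid-binding protein, which fell to 9.45 and 12.3 FPKM with PCN, against 50.5 and 46.8 FPKM with vehicle (log2 difference -2.08, adjusted p = 0.0397, limma). Over all genes tested, 0.054% passed as lower.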

How the data were processed

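The deposited table holds FPKM values that the authors computed per transcript, for 21160 transcripts that the table labels protein-coding, the pseudogene Ces2d-ps among them, of 4 ileum libraries, 2 per group. Its build is mm10 per the submitters' processing notes, libraries were made with a SMARTER kit, and the aligner and quantifier of this table are not given in the sources used here. For colon libraries the RNA-seq methods name STAR and HTSeq with a pig genome, which differs from the tissue, build and unit here, so those tools were not taken for this table. In each transcript the larger of both group means is at least 1.00005 FPKM, so genes below that in both groups were not analysed here, and the emptied entry of 1 line was left out. Libraries were grouped by the treatment label.

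FPKM were summed per gene, and the 11103 genes that averaged 1 FPKM or more were tested as log2(FPKM + 1) with limma 3.58.1 (trend) in R 4.3.3, with Benjamini-Hochberg adjustment over all of them and a threshold of 0.05. The fit was tested on simulated data. Family shares are sums over the 9 members, and the ratio of Ces2a to Ces2e was compared by an exact permutation test (scipy 1.17.1). Depth could not be recovered, so no counting error is given. Gene models, coding identity and windows of 50 bases came from GENCODE M21, and promoters from RefSeq. All members were named, with up to 4 called or otherwise the 2 most abundant genes of each of 12 marker lists and 3 pathway lists, and the 3 genes nearest to the most abundant member in pattern. The members and lists were chosen with earlier results of these data known. The alternatives were other pseudocounts (0.5 and 0.1), no filter and a mean of at least 5 FPKM, rescaling, a replicate block, no trend, each library left out, a smooth muscle covariate and other transcript choices.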

Additional observations from a re-analysis of the deposited data

How the results depend on the processing

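Over 127 member values under alternative settings, 116 kept their direction and their side of the threshold, 4 passed it and 7 turned in sign. Ces2a passed at a mean of at least 5 FPKM (log2 difference 2.33, adjusted p = 0.0268, limma), after rescaling to the same total (2.38, adjusted p = 0.0130), with a replicate block (2.33, adjusted p = 0.00643) and with own-run transcripts only (2.33, adjusted p = 0.0391). Leaving out 1 library gave 1.96 to 2.69 for Ces2a. The signs that turned were Ces1d after rescaling to the same total (0.023), without PCN replicate 1 (0.10), without vehicle replicate 2 (0.16) and with the smooth muscle covariate (0.39), Ces1e without PCN replicate 1 (0.20) and with that covariate (0.27), and Ces1c without PCN replicate 1 (0.0060). Leaving out 1 library gave -0.23 to 0.0060 for Ces1c, -0.21 to 0.16 for Ces1d and -0.26 to 0.20 for Ces1e. The cause was not tested. At a mean of at least 5 FPKM only Ces1f, Ces2a and Ces2e had a value, and Ces1e and Ces2g also had none in some of the other settings, where they averaged under 1 FPKM. The family share (0.109 to 0.140 percentage points higher with PCN when 1 library was left out) and the share of Ces2a within it (31.1 to 40.3 points) kept their direction.

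Over all genes, 9 were called higher and 6 lower with PCN. Called higher were 5 at a pseudocount of 0.1, 34 at a mean of at least 5 FPKM, 23 after rescaling to the same total, 39 with the replicate block, 2 without the trend and 0 with the smooth muscle covariate, and 0 to 8 with 1 library left out. Called lower were 22, 14, 21, 0 and 0 at a mean of at least 5 FPKM, after rescaling to the same total, with the block, without the trend and with the covariate, and 0 to 12 with 1 library left out. Where limma called 0 in both directions, 772 to 851 genes had an unadjusted p under 0.05, and without the trend 941 had one. The labels do not say whether libraries of the same number were handled together. Deviations of libraries of the same number had a correlation of 0.03, and 2 pairs are too few to settle it. The counts with the block are therefore given here only. With 2 libraries per group and no read numbers, the spread of each gene rests on few values.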
